A study of Mus musculus with 24 samples.

Results

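The 9 genes described here, Mbp, Mobp, Cnp, Mal, Opalin, Mog, Mag, Sox10 and Myrf, are expressed by oligodendrocytes, the cells that wrap central axons in myelin. They were taken by symbol from the deposited estimated-count and TPM tables (TPM scale a transcript's abundance by its length and by the library), which list 55291 genes, and all 9 were present and passed the filter on low counts in every comparison. The tables come from hippocampal poly(A) RNA of 12 mice profiled by MeRIP-seq. RNA that carries N6-methyladenosine (m6A), a methyl mark within messenger RNA, is pulled down with an antibody and sequenced as the IP library, beside a portion kept back as the input library.

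The mice form 3 groups of 4, and each mouse gave 1 input and 1 IP library, 24 libraries in all. The first group was wild-type and had no treatment. The other groups were 5xFAD mice, in which the neuronal Thy1 promoter drives human transgenes with mutations of familial Alzheimer's disease. One of them received vehicle and the other received MS1262, which the series title describes as a G9a inhibitor that enters the brain; G9a is a histone methyltransferase, encoded by Ehmt2. The groups were matched for age; the age, the dose and its length are not given in the sources used here. Since the wild-type mice had no vehicle, genotype and dosing cannot be told apart in a comparison with them. The labels describe no fragmentation before the antibody step, and an IP value of a gene is therefore read for its transcripts as a whole and not for a site.

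Oligodendrocytes arise from precursor cells. The transcription factor SOX10 marks the lineage and, with MYRF, a membrane-bound factor that is cleaved to free its DNA-binding part, switches on the genes of the myelin sheath as precursors mature. MBP holds the cytoplasmic faces of the sheath together, MOBP is a second basic protein of compact myelin, and MAG and MOG sit on its innermost and outermost surfaces. m6A has been tied to this lineage in mice: loss of the m6A writer Mettl14 from it leaves too little myelin, and the reader Prrc2a acts on Olig2 messenger RNA.

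Input libraries held 20692611 to 43150054 counts and IP libraries 3984481 to 48597732, the lowest being that of vehicle animal 4 and the second lowest 10645929. Vehicle animal 3 stood apart: its input held a sum of 8305 CPM (counts scaled to library size) over 8 choroid plexus markers, against 59.4 to 916 in the 11 other inputs, and a sum of 386 CPM over 4 thalamic markers, against 67.4 to 118. Both libraries of that animal also held little Xist, at 1.41 and 0.854 CPM, against 19.0 to 52.3 in the 22 other libraries, while 4 Y-linked genes together had at most 5 counts in any library. The sum of 12 oligodendrocyte markers, which include the 9 genes, was 4390 to 6190 CPM in wild-type inputs, 4204 to 6473 in vehicle inputs (the highest being animal 3) and 4595 to 5054 in MS1262 inputs. Of the markers of Schwann cells, the myelinating cells of peripheral nerve, Prx stayed at or under 0.0877 CPM in all 12 inputs and Pmp22 was at 26.4 to 35.8 CPM in wild-type, 43.7 to 51.9 in vehicle and 37.8 to 48.3 in MS1262 inputs. All 8 5xFAD inputs thus lay above the wild-type inputs for Pmp22. Of all genes tested, 3.8% had vehicle inputs and 4.93% MS1262 inputs that all lay above the wild-type ones. In vehicle against wild-type Pmp22 rose by 0.58 log2 (adjusted p = 0.0237, edgeR). The call was lost without wild-type animal 3 or 4 or vehicle animal 1 or 2 (adjusted p of 0.0661 to 0.0830, edgeR). It was also lost with only the 2 groups compared (adjusted p = 0.0541, edgeR) and with limma on log2(TPM + 1) (adjusted p = 0.165), and kept with DESeq2 (adjusted p = 0.00106). The part of Pmp22 in the results was not tested. In bulk tissue, fewer oligodendrocytes and less RNA in each of them cannot be told apart.

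SOX and MYRF motifs can be sought in the promoter sequence of 6 of the 9 genes. RefSeq sequence upstream of the start was matched by symbol for Mog, Mag, Mobp, Cnp, Mal and Opalin. Mag had 3 promoter entries, of which only 1 was searched. The 250 bases before each start were searched on both strands for a SOX motif (ACAAAG or ACAATG) and for the MYRF motif (CTGGCAC or CTGGTAC). Printed here are the 4 promoters with a MYRF motif or with several SOX motifs. They run 5′ to 3′ in the direction of the gene, on GRCm38.p6, and capitals mark the matches (CTTTGT is ACAAAG and GTACCAG is CTGGTAC on the other strand). Bases that lie inside the annotated gene, 59 for Mag and 30 for Cnp, are left off.
Mobp, chr9:120149492-120149741, plus strand: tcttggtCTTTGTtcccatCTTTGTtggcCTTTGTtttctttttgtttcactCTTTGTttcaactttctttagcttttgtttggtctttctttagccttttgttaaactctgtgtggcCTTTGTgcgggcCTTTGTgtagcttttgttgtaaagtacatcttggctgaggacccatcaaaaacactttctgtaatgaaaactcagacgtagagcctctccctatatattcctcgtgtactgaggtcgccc
Mag, chr7:30914923-30915113, minus strand: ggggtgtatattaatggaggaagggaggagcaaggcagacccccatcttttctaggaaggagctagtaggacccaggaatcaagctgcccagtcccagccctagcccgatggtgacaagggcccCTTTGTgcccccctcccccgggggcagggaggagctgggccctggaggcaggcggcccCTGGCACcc
Cnp, chr11:100574689-100574908, plus strand: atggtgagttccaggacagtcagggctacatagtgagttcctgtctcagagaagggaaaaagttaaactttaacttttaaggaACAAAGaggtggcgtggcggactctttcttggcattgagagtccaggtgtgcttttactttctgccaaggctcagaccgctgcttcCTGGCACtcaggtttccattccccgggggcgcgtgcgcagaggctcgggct
Mog, chr17:37023399-37023648, minus strand: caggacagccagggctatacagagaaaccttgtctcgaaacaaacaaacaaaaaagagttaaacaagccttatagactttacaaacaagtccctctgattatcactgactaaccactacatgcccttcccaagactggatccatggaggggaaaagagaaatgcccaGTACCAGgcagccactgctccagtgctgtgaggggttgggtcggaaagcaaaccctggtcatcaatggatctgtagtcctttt

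The Mobp promoter held 6 matches to ACAAAG, the farthest beginning 243 bases and the nearest 120 bases before the start. Mag and Cnp each held 1 SOX and 1 MYRF match, the MYRF matches beginning 9 and 51 bases before the annotated start, at which the printed sequences end. Mog held 1 MYRF match 83 bases before its start and no SOX match, Opalin held 1 SOX match at 139 bases, and Mal held neither. Among 32851 promoters of the same length, 25.2% held a SOX motif and 5.93% a MYRF motif, so a SOX match alone is common. A match is a run of letters and was not tested for binding.

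Per length, Mbp had the highest level of the 9 in wild-type input, at 260 ± 39.3 TPM (SD, n = 4). Mog at 139 ± 16.5, Mobp at 138 ± 19.7 and Mal at 109 ± 17.2 TPM came next, and the animals of those 3 genes overlapped. Cnp, which encodes a cyclic nucleotide phosphodiesterase of non-compact myelin, was at 34.7 ± 5.26 TPM and Opalin, a membrane protein of mature oligodendrocytes, at 31.8 ± 5.01, again with overlap. Mag was at 4.73 ± 0.869 TPM, and the factors Sox10 and Myrf were lowest and overlapped, at 1.72 ± 0.455 and 1.59 ± 0.481 TPM. Mbp stood above Mog and Mobp, Mal above Cnp, Opalin above Mag, and Mag above Sox10 in every wild-type animal. In MS1262 inputs the means ran from 228 ± 53.5 TPM for Mbp to 1.95 ± 0.378 for Sox10.

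**Figure D1:**
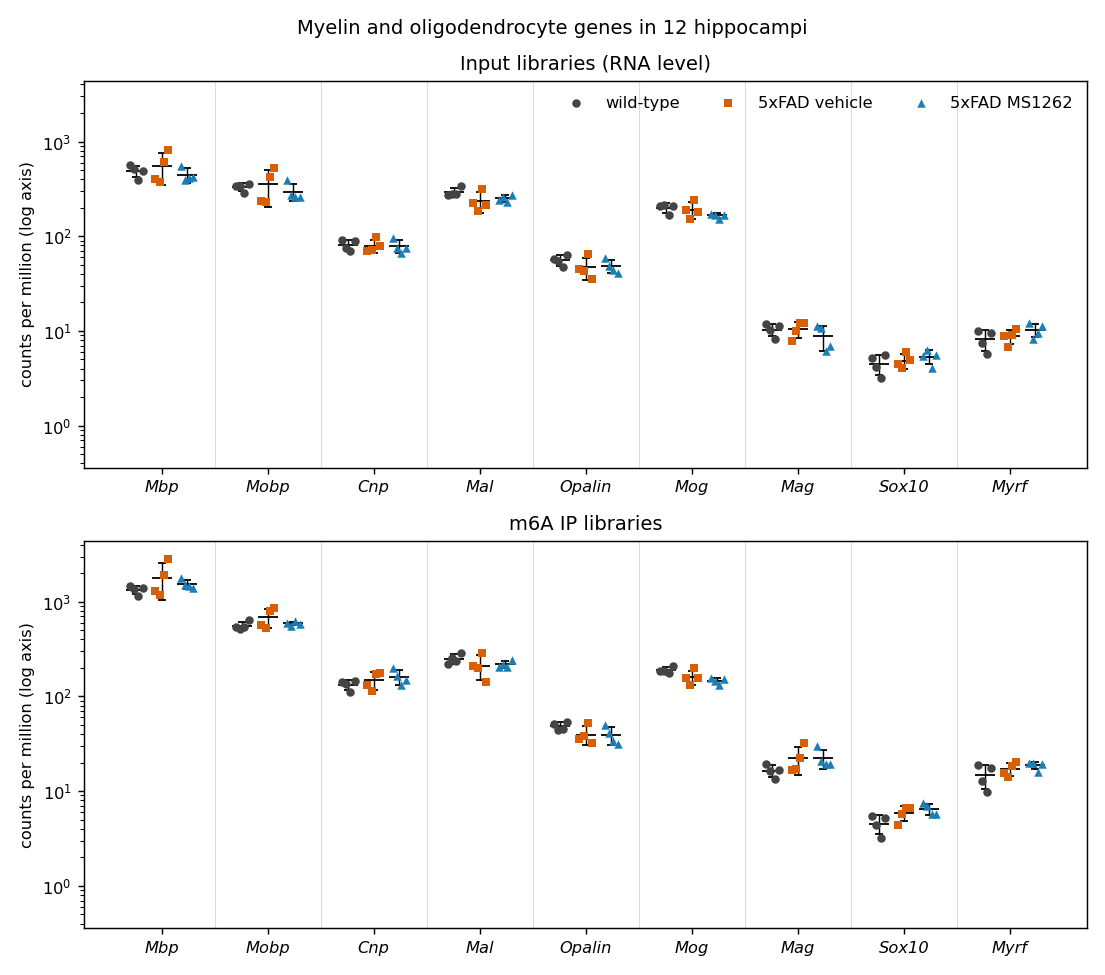
Level of each of the 9 genes in the input libraries (upper panel) and m6A IP libraries (lower panel) of the 12 mice, in CPM on a log axis; each point is 1 animal, and the lines are the group mean and 1 SD (n = 4). In the input the 3 groups overlap for every gene except Mal, where the 4 MS1262 animals lie under the 4 wild-type animals, and the vehicle animals spread widely for Mbp, from 376 to 811 CPM.

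Input levels of the 9 genes did not pass the test in any comparison of groups. In vehicle against wild-type animals, edgeR's quasi-likelihood test with Benjamini-Hochberg adjustment over 17693 genes called 0 of the 9, while 1.57% of all genes were called, and the smallest adjusted p among the 9 was 0.343. In MS1262 against vehicle it called 0 of the 9, and 0% of all genes. Before adjustment 1003 genes and 0 of the 9 had p under 0.05, and DESeq2 called 11 genes, none of them among the 9. In MS1262 against wild-type edgeR called 0 of the 9, against 1.3% of all genes. Unadjusted p in edgeR was under 0.05 for 2263 genes and 1 of the 9 in vehicle against wild-type. In MS1262 against wild-type it was under 0.05 for 2522 genes and 0 of the 9. The median log2 difference over the 9 genes was 0.02, −0.02 and −0.15 in the 3 comparisons, beside 0.01, −0.01 and 0.00 over all genes. For MS1262 against vehicle, the 95% intervals of the 9 genes ran from −0.75 to 0.65 log2, so changes within these bounds were not resolved with 4 animals a group.

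Among the structural genes, Mbp in the input was at 561, 510, 395 and 488 CPM in wild-type animals 1 to 4, at 407, 376, 612 and 811 in vehicle animals, and at 558, 390, 408 and 427 in MS1262 animals. Vehicle animals 3 and 4 were the highest of all 12, and vehicle animal 2 the lowest. The log2 difference of vehicle against wild-type was 0.19 ± 0.21 (SE; adjusted p = 0.777, edgeR). Mobp followed Mbp, with 339, 337, 286 and 359 CPM in wild-type animals, 234, 229, 417 and 528 in vehicle animals, and 389, 274, 260.0 and 261 in MS1262 animals. For Mobp, vehicle animals 1 and 2 lay under all wild-type animals, and vehicle animals 3 and 4 again lay above them all. Without vehicle animals 3 and 4, vehicle against wild-type was −0.32 for Mbp and −0.52 (adjusted p = 0.146, edgeR) for Mobp, against 0.19 and 0.10 with them. This pair was chosen after the data were seen and held the highest inputs of both genes, so a fall follows from the choice.

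Mal, a proteolipid of myelin membranes, was at 275, 280.3, 279.9 and 341 CPM in wild-type inputs, at 223, 184, 314 and 211 in vehicle inputs, and at 240.4, 260.4, 228 and 273 in MS1262 inputs. All vehicle animals but animal 3 lay below the wild-type animals, and all MS1262 animals did, the gap between 273 and 275 CPM being small. Of all genes tested, 4.97% had MS1262 inputs that all lay below the wild-type ones and 4.93% above, and Mal was the 1 of the 9 genes without overlap in the input. Vehicle inputs lay all above wild-type in 3.8% of genes and all below in 3.2%, and MS1262 inputs all above vehicle in 1.58% and all below in 1.76%, with 0 of the 9 genes in each. The difference of vehicle against wild-type was −0.32 ± 0.14 log2 (95% interval −0.62 to −0.03, adjusted p = 0.343, edgeR). Without vehicle animal 3, the one with choroid plexus and thalamic RNA, it was −0.52 and passed the test (adjusted p = 0.0296, edgeR). Without vehicle animals 3 and 4 together it was −0.54 (adjusted p = 0.0543, edgeR). Animal 3 was the highest vehicle input for Mal, so leaving it out had to enlarge the fall, and the pair was chosen after the data were seen. MS1262 against wild-type was −0.22 ± 0.14 log2 (adjusted p = 0.507, edgeR).

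Opalin was at 57.3, 55.1, 47.1 and 63.8 CPM in wild-type inputs, at 45.01, 43.3, 64.3 and 35.1 in vehicle inputs, and at 58.5, 48.5, 44.4 and 40.9 in MS1262 inputs, with overlap throughout. Cnp lay between 70.2 and 90.5 CPM in wild-type, 70.3 and 97.2 in vehicle and 66.7 and 95.2 in MS1262 inputs, and its difference was within 0.05 log2 of 0 in each comparison.

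Of the surface glycoproteins, Mog was at 209, 214, 166 and 208 CPM in wild-type, 189, 153, 244 and 179 in vehicle and 174, 166, 153 and 169 in MS1262 inputs. The MS1262 animals sat at the bottom of the wild-type range, and the difference of −0.26 ± 0.12 log2 did not pass (adjusted p = 0.363, edgeR). Mag lay between 8.19 and 11.8 CPM in wild-type, 7.74 and 12.001 in vehicle and 6.09 and 11.1 in MS1262 inputs. The factors were low in every group: Sox10 spanned 3.19 to 5.51, 4.01 to 6.06 and 4.09 to 6.27 CPM, and Myrf 5.67 to 9.90, 6.76 to 10.5 and 8.25 to 12.02 CPM, in wild-type, vehicle and MS1262 inputs. MS1262 against wild-type was 0.25 ± 0.22 log2 for Sox10 and 0.34 ± 0.20 for Myrf (adjusted p = 0.663 and 0.471, edgeR).

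The 9 genes fell into 3 sets by how much of their RNA was pulled down by the m6A antibody. Mbp, Mag, Mobp, Myrf and Cnp were higher in the IP than in the input, Mog, Mal and Opalin were slightly lower, and Sox10 was not called. Over all 12 animals edgeR called 5 of the 9 higher and 3 lower, beside 55.9% of the 18300 genes tested called in either direction (28.2% higher and 27.7% lower), so a call by itself is common. The median over the 9 genes was 0.88 log2 and that over all genes 0.00.

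IP over input was largest for Mbp, at 1.65 ± 0.05 log2 over all animals (3.13-fold, adjusted p = 5.67e-13, edgeR). By animal, its log2 ratio of IP CPM to input CPM was 1.39, 1.41, 1.53 and 1.51 in wild-type, 1.66, 1.63, 1.65 and 1.81 in vehicle, and 1.68, 1.94, 1.85 and 1.70 in MS1262 animals. Mag was at 1.03 ± 0.07 (2.05-fold, adjusted p = 4.96e-09, edgeR), Mobp at 0.93 ± 0.07, Myrf at 0.89 ± 0.07 and Cnp at 0.88 ± 0.05 log2. These 5 genes passed as higher in each of the 3 groups by itself. In wild-type animals 5 of the 9 were called higher and 0 lower, beside 33% of all genes called (16.8% higher and 16.2% lower). In vehicle animals 5 were higher and 2 lower, beside 39.7% (19.1% and 20.6%), and in MS1262 animals 5 and 1, beside 38.1% (20.5% and 17.6%). Within the 5, a structural protein of compact myelin, an adhesion molecule, an enzyme and a transcription factor stood side by side.

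At the other end, Opalin was at −0.24 log2 (adjusted p = 0.000309, edgeR), Mal at −0.20 (adjusted p = 0.00554) and Mog at −0.16 (adjusted p = 0.00727) over all animals, and all 12 ratios of Opalin were below 0. These negative values are relative to the other genes of each library. On log2(TPM + 1) without centring, the median of all genes was 0.36 and the 3 genes were at 0.37, 0.45 and 0.44, and after centring on the library median they were negative again. In single groups, Mog and Opalin passed as lower in vehicle and Opalin in MS1262, and none of the 3 in wild-type. With 3 animals some of these calls missed the threshold at a similar size. Mog in vehicle, at −0.25 log2, was at −0.24 and −0.23 without animal 1 or 3 (adjusted p = 0.0789 and 0.0786, edgeR). Opalin in vehicle, at −0.24, was at −0.21, −0.26 and −0.23 without animal 1, 2 or 3 (adjusted p = 0.134, 0.0545 and 0.1004, edgeR), and Opalin in MS1262, at −0.30, was at −0.27 without animal 3 (adjusted p = 0.0541, edgeR). Sox10 was at 0.18 log2 (adjusted p = 0.0921, edgeR), with ratios of −0.10 to 0.10 in wild-type animals and −0.01 to 0.53 in vehicle animals.

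**Figure D2:**
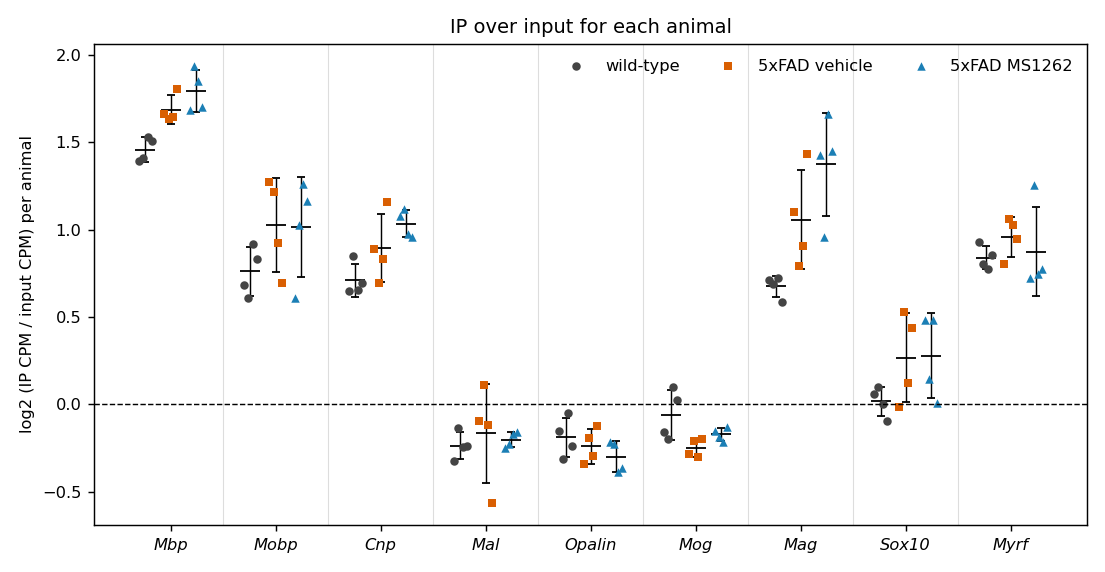
Log2 ratio of IP CPM to input CPM for each of the 9 genes in each animal; each point is 1 animal, the lines are the group mean and 1 SD (n = 4), and the dashed line marks equal CPM. Mbp, Mobp, Cnp, Mag and Myrf lie above 0 in every animal, Opalin lies below 0 in every animal, and for Mbp and Mag both 5xFAD groups lie above the wild-type animals.

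m6A enrichment between groups, tested as the difference of IP over input with each animal's own input as its partner, was called for 0 of the 9 genes in vehicle against wild-type (0.989% of 18300 genes called), 0 in MS1262 against vehicle (0%) and 0 in MS1262 against wild-type (1.24%). For MS1262 against vehicle, edgeR gave 434 genes and 0 of the 9 an unadjusted p under 0.05, and DESeq2 called 2 genes and 0 of the 9. Against wild-type, edgeR gave an unadjusted p under 0.05 to 2140 genes and 0 of the 9 in vehicle. In MS1262 against wild-type it did so for 2034 genes and 3 of the 9. The median over the 9 genes was 0.18, 0.03 and 0.26 log2 in the 3 comparisons, against −0.06, 0.05 and 0.00 over all genes. Both comparisons with wild-type share the same wild-type animals.

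The largest difference was that of Mag in MS1262 against wild-type. Its log2 IP over input was 0.71, 0.69, 0.72 and 0.59 in wild-type, 1.10, 0.79, 0.90 and 1.43 in vehicle, and 1.43, 0.96, 1.66 and 1.45 in MS1262 animals. All 8 5xFAD animals thus lay above the 4 wild-type animals. The difference of MS1262 against wild-type was 0.70 ± 0.18 log2 (95% interval 0.31 to 1.08), and its adjusted p of 0.0749 in edgeR missed the threshold of 0.05. Over 13 alternatives the adjusted p ran from 0.0216 to 0.782, and DESeq2 called it (adjusted p = 0.0216). Vehicle against wild-type was 0.38 ± 0.18 log2 (adjusted p = 0.437, edgeR). Mag has few reads: 172 to 450 counts in an input and 152 to 889 in an IP library.

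Mbp showed the same order of groups with smaller steps, and its 8 5xFAD ratios, from 1.63 to 1.94, also lay above the 4 wild-type ratios, from 1.39 to 1.53. The difference was 0.23 ± 0.11 log2 in vehicle (adjusted p = 0.434, edgeR) and 0.33 ± 0.11 in MS1262 (adjusted p = 0.188, edgeR) against wild-type. Cnp in MS1262 animals, at 1.08, 1.12, 0.98 and 0.96, lay above wild-type animals at 0.65, 0.85, 0.65 and 0.69, while the vehicle animals, at 0.89, 0.70, 0.83 and 1.16, overlapped both (MS1262 against wild-type 0.32 ± 0.12 log2, adjusted p = 0.307, edgeR). A gap of this kind, with every ratio of the 5xFAD group above every wild-type ratio, was found in 4.33% of all genes for vehicle and in 6.57% for MS1262, and here in 2 of the 9 (Mbp and Mag) and 3 of the 9 (Mbp, Mag and Cnp).

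Mobp varied more within the 5xFAD groups, at 1.27, 1.21, 0.92 and 0.69 in vehicle and 0.61, 1.03, 1.26 and 1.16 in MS1262 animals, against 0.68, 0.61, 0.92 and 0.83 in wild-type. Vehicle against wild-type was 0.26 ± 0.16 log2, and 0.49 (adjusted p = 0.0874, edgeR) without vehicle animals 3 and 4. Mog went the other way in vehicle, where its 4 ratios of −0.30 to −0.20 lay just under the wild-type ratios of −0.20 to 0.10; 3.23% of all genes showed such a gap, and the difference was −0.19 ± 0.11 log2 (adjusted p = 0.539, edgeR). Mal, Opalin and Myrf differed by at most 0.11 log2 in any comparison. In MS1262 against vehicle, Mag at 0.32 ± 0.18 log2 was farthest from 0 and did not pass (adjusted p = 1, edgeR).

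**Figure D3:**
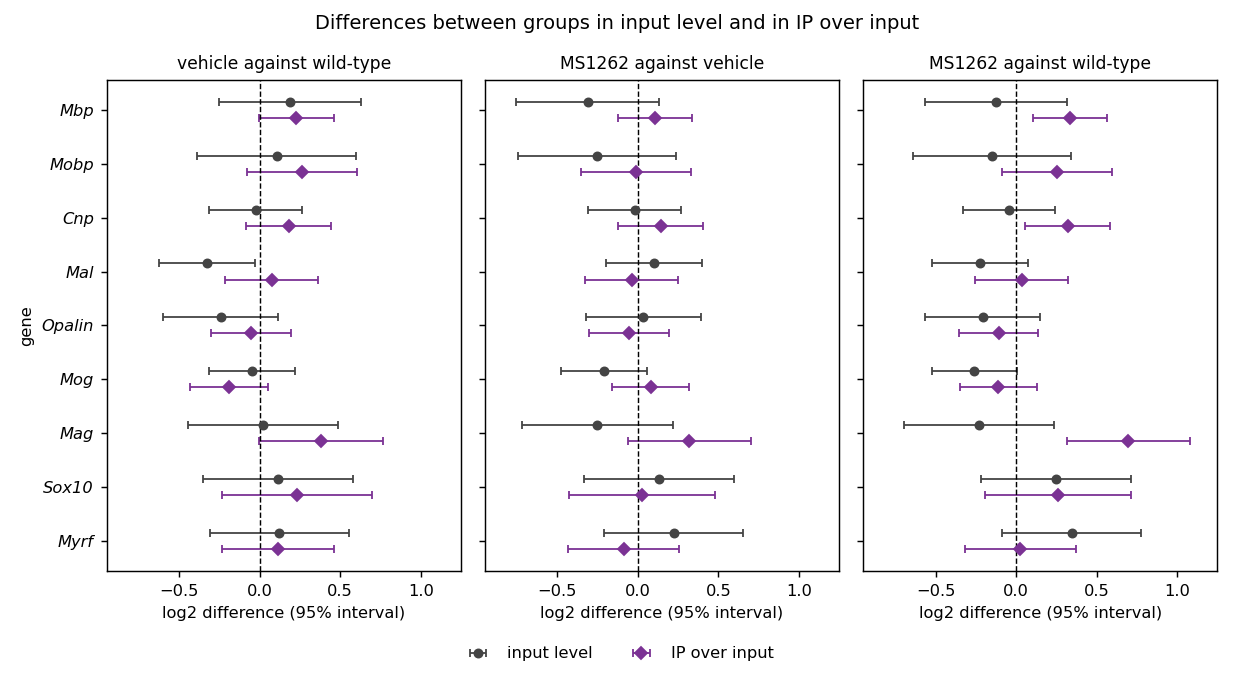
Log2 difference between groups for the 9 genes, for the input level (circles) and for IP over input (diamonds), with 95% intervals from the edgeR fits; the dashed line marks no difference. For MS1262 against wild-type the intervals of IP over input for Mbp, Cnp and Mag lie above 0 before adjustment, and none of the 9 genes passed after adjustment over all genes. In that comparison 2034 of 18300 genes had an unadjusted p under 0.05 (edgeR).

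IP levels by themselves, over 12 IP libraries and 16941 genes, gave 0 calls among the 9 genes in vehicle against wild-type (0.537% of all genes called), 0 in MS1262 against vehicle (0%) and 0 in MS1262 against wild-type (0.673%). For MS1262 against vehicle, 599 genes and 0 of the 9 had an unadjusted p under 0.05 in edgeR, and DESeq2 called 4 genes and 0 of the 9. Compared with wild-type, 1849 genes and 0 of the 9 had an unadjusted p under 0.05 in vehicle, and 1936 and 2 in MS1262 (edgeR). In IP libraries Sox10 was at 5.41, 4.44, 3.20 and 5.15 CPM in wild-type and 7.54, 6.92, 5.72 and 5.67 in MS1262 animals, without overlap (0.50 ± 0.21 log2, adjusted p = 0.384, edgeR). Mog was without overlap in the other direction, between 177 and 212 CPM in wild-type and 132 and 156 in MS1262 IP libraries (−0.38 ± 0.13 log2, adjusted p = 0.268, edgeR). Such gaps were found in 7.22% of all genes upward and 6.6% downward, and in 1 of the 9 genes each.

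The authors called m6A peaks for each animal from its IP library over its own input. Mbp, Mobp and Cnp carried a peak in all 12 animals, which 3.1% of 21900 protein-coding genes did, while 25.7% carried one in at least 1 animal. Mal carried a peak in 6 animals, Mag in 4, Myrf in 4, Mog in 2, Sox10 in 1 and Opalin in none. Mag and Myrf, whose RNA was higher in the IP than in the input by about as much as that of Cnp, thus had peaks in few animals; both had low counts. Fold enrichments of peaks are the authors' own and are used to describe only. Genes were assigned by overlap with the RefSeq gene span on GRCm38.p6, and exons were not used here.

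In Cnp (chr11:100574909-100591875, plus strand) the region chr11:100575895-100577050, centred 1.56 kb after the annotated start, held a peak in all 12 animals with a highest fold of 2.59 to 4.82 by animal. In Mbp (chr18:82475091-82585637) there were 9 regions, 4 of them with a peak in all 12 animals, and their centres all lay 79.6 kb or more from its lower-coordinate end. The highest fold of any peak in the 9 genes was 5.54, in Mbp. Mobp (chr9:120149742-120181488, plus strand) had 8 regions. Those at chr9:120173009-120173544 and chr9:120179184-120181247 held a peak in all 12 animals. The region nearest the Mobp start, chr9:120149761-120149968, directly follows the promoter printed above and held a peak in 4 animals, vehicle animals 2 and 3 and MS1262 animals 2 and 3, with folds of 3.83 to 4.52. A second region, chr9:120154562-120154932, held one in 7 animals, of which 1 was wild-type.

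Mal (chr2:127633226-127656695, minus strand) had peaks in 5xFAD animals alone. The region chr2:127640081-127640500 held one in 3 vehicle and 3 MS1262 animals with folds of 2.45 to 4.29, and chr2:127655899-127656186, within 1 kb of the start, in 2 and 2 animals with folds of 3.37 to 4.56. Vehicle animal 3 and MS1262 animal 1 had none. Of the 21900 protein-coding genes, 188 (0.858%) had a peak in at least 6 of the 8 5xFAD animals and in 0 wild-type animals; 2010 (9.18%) had one in at least 1 5xFAD animal and 0 wild-type animals, and 280 (1.28%) the reverse. The IP over input of Mal as a whole transcript differed by 0.07 ± 0.14 log2 in vehicle and 0.03 ± 0.14 in MS1262 against wild-type (adjusted p = 0.867 and 0.976, edgeR), with ratios of −0.32 to −0.14 in wild-type, −0.56 to 0.11 in vehicle and −0.25 to −0.16 in MS1262 animals. The lists held 3534 to 5004 peaks in wild-type, 3794 to 6591 in vehicle and 4393 to 6097 in MS1262 animals, from 14758734 to 60372678, 8594986 to 53168100 and 31220796 to 51925904 IP tags. Vehicle animal 4 had the most peaks and the fewest tags of the 12. The number of animals with a Mal peak was not tested between groups, nor was the part of depth and peak number in it.

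**Figure D4:**
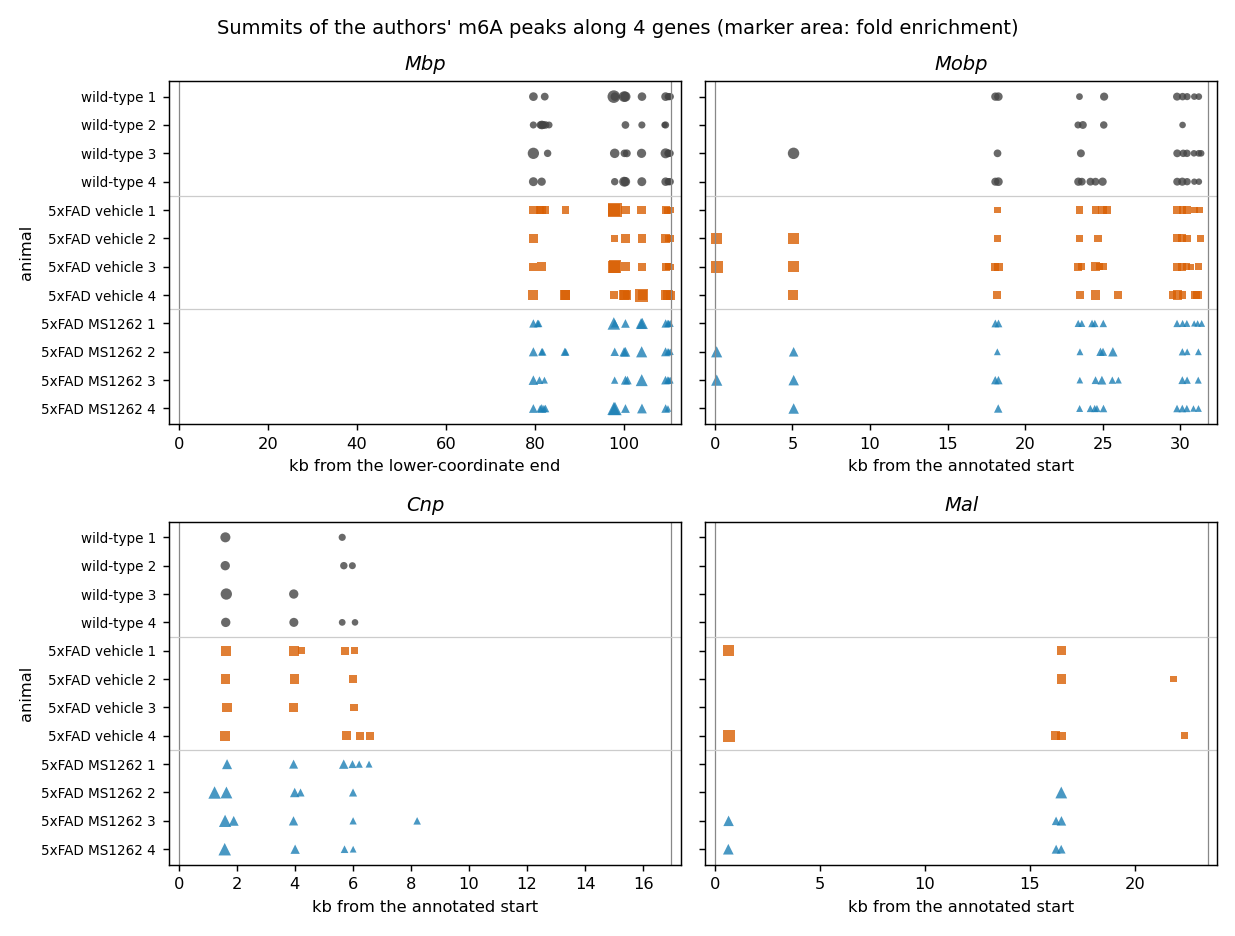
Summits of the authors' m6A peaks in Mbp, Mobp, Cnp and Mal, 1 line per animal, by distance in kb from the annotated start (for Mbp from its lower-coordinate end); marker area is proportional to the authors' fold enrichment, and grey vertical lines mark the ends of the gene. In Mbp, Mobp and Cnp, the regions with a peak in all 12 animals recur in all 3 groups. Other regions held one in 5xFAD animals alone, such as that nearest the Mobp start, or in 1 wild-type animal alone, in Mbp. Summits of Mal appear in 3 vehicle and 3 MS1262 animals and in 0 wild-type animals.

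Across the 12 inputs the 9 genes moved together to unequal degrees. All 36 pairs had a positive Pearson correlation of log2 CPM, with a median of 0.49 and a range of 0.03 to 0.95. By Spearman rank correlation, Mal and Myrf were at −0.13 and Opalin and Myrf at −0.03. Correlations are given as a description since the libraries share tissue composition and depth. Mbp and Mobp were the closest pair (r = 0.95, and 0.88 without vehicle animals 3 and 4), followed by Mag and Cnp at 0.73 and Mal and Opalin at 0.70. The factors Sox10 and Myrf correlated at 0.68. Mobp and Opalin correlated at 0.21, and at 0.91 without vehicle animals 3 and 4. The mean of the 9 genes, each centred over the 12 inputs, was highest in vehicle animal 3 at 0.31 log2 and lowest in vehicle animal 2 at −0.27, so vehicle animals held both ends.

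**Figure D5:**
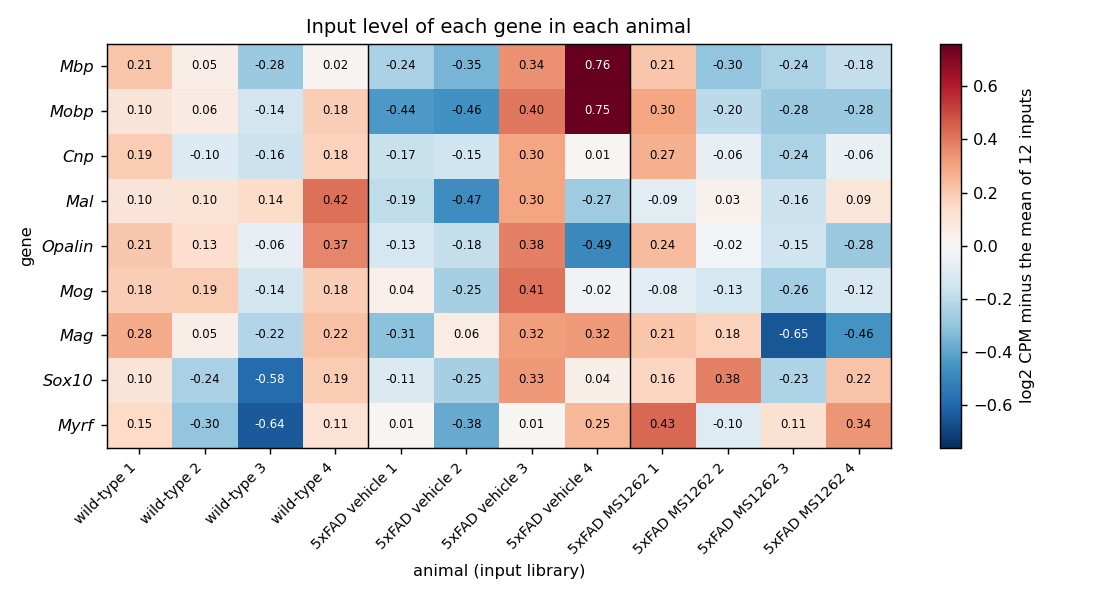
Input level of each of the 9 genes in each animal, as log2 CPM minus the gene's mean over the 12 inputs (colour and printed value). Vehicle animal 3 is above the mean for all 9 genes, and in vehicle animal 4 Mbp and Mobp are at 0.76 and 0.75 while Mal and Opalin are at −0.27 and −0.49.

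Among 12343 genes with a mean of at least 1 log2 CPM over the inputs, those whose input profile over 12 animals was most like the mean of the 9 were Dnaja4 (r = 0.91, and 0.87 without the 2 animals farthest from the median), Fgfr2 (0.85 and 0.76), Zfp64, Slc6a9, Dbndd2 and Septin4 (0.85 each), and Carhsp1, Tada3, Rnaseh1 and Gpr162 (0.84 each). Of these 10, Septin4 alone was in a gene list used here.

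Genes with related roles were read in 7 lists, whose medians and counts stand beside the background given above. For input levels, 30 other genes of compact myelin and mature oligodendrocytes had 1 gene called in vehicle against wild-type (median 0.00 log2) and 0 in MS1262 against wild-type (median −0.08). The 1 gene was Cryab, a small heat shock protein made by oligodendrocytes, which rose from 194 to 286 CPM in wild-type to 301 to 409 in vehicle inputs without overlap (0.56 ± 0.12 log2, adjusted p = 0.0359, edgeR). Among 12 precursor genes, Sox6, a factor that holds precursors back from maturing, was the 1 called (0.58 ± 0.13 log2, adjusted p = 0.0417, edgeR). In the lists of 12 myelin lipid enzymes, 12 oligodendrocyte transcription factors, 11 tested genes of newly formed oligodendrocytes and 6 tested genes of the Nogo receptor pathway, 0 were called in either comparison. In MS1262 against vehicle, 0 genes of any of the 7 lists were called for input level, IP level or m6A enrichment.

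The list of disease-associated oligodendrocyte genes, named for a state seen in models of amyloid pathology, was the one with several calls. Of its 10 genes, 4 rose in vehicle against wild-type, where 1.06% of all genes were called higher, and the list's median was 0.76 log2 against 0.01 over all genes. C4b, a complement component, was at 4.86 to 7.49 CPM in wild-type and 9.14 to 41.1 in vehicle inputs (1.87 ± 0.36 log2, adjusted p = 0.0177, edgeR). The tetraspanin Cd9 rose by 0.95 ± 0.15 log2 (adjusted p = 0.00464) and Cd63 by 0.73 ± 0.10 (adjusted p = 0.00234), each without overlap. B2m, the light chain of class I molecules, named after its value was seen, rose by 0.87 ± 0.17 log2 (adjusted p = 0.0193). In MS1262 against wild-type, which shares the wild-type animals and where 0.91% of all genes were called higher, 4 genes rose, with C4b at 2.04 ± 0.36 log2 (adjusted p = 0.0112, edgeR) and Cd9 at 0.90 ± 0.15 (adjusted p = 0.00641), followed by B2m at 0.80 ± 0.17 (adjusted p = 0.0327) and Cd63, named after its value was seen, at 0.46 ± 0.10 (adjusted p = 0.0368). Microglia and astrocytes also express these genes, and the sum of 5 microglia markers was 295 to 342 CPM in wild-type, 321 to 581 in vehicle and 406 to 510 in MS1262 inputs, all 5 being above 0 in each. The sum of 5 astrocyte markers was 5415 to 6938, 5690 to 8384 and 6034 to 6730 CPM. The part of these cells in the rise was not tested. In IP levels, C4b, Cd9 and Cd63 rose in vehicle against wild-type, where 0.431% of all genes were called higher, and C4b, Cd9 and Il33 in MS1262 against wild-type, beside 0.555%.

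m6A enrichment was called for other myelin or oligodendrocyte genes where the 9 missed the threshold. Of the 30 other genes of compact myelin and mature oligodendrocytes, 3 rose in vehicle against wild-type, where 0.962% of all genes were called higher. In MS1262 against wild-type 5 rose, beside 1.22%. The median of the list was 0.03 log2 in each. Gjb1, a gap junction protein of myelin, had log2 IP over input of 0.88 to 1.49 in wild-type, 1.83 to 2.60 in vehicle and 2.13 to 2.67 in MS1262 animals (1.10 ± 0.23 log2, adjusted p = 0.0299, in vehicle, and 1.24 ± 0.23, adjusted p = 0.0127, in MS1262 against wild-type, edgeR). Plekhb1 was at −0.18 to 0.13, 0.50 to 0.75 and 0.47 to 0.99 in the 3 groups (0.63 ± 0.14 and 0.76 ± 0.14 log2, adjusted p = 0.0365 and 0.0112). Qdpr passed in vehicle (0.54 ± 0.12, adjusted p = 0.0407), Pllp, the myelin proteolipid plasmolipin, in MS1262 (0.85 ± 0.20, adjusted p = 0.0441), and Bcas1 and Qdpr, named after their values were seen, also in MS1262 (0.72 and 0.51 log2).

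Sirt2, a deacetylase of oligodendrocytes, had the largest m6A difference of any list gene that passed. Its log2 IP over input was −0.44 to 0.38 in wild-type, 1.04 to 2.02 in vehicle and 1.021 to 1.71 in MS1262 animals, with 1.42 ± 0.23 log2 (adjusted p = 0.00602) in vehicle and 1.48 ± 0.22 (adjusted p = 0.00459) in MS1262 against wild-type in edgeR. Its input level overlapped between groups, at 49.0 to 109 CPM in wild-type, 27.5 to 83.8 in vehicle and 32.6 to 57.5 in MS1262. Olig1, a lineage factor, was the 1 of 12 transcription factors called (MS1262 against wild-type 0.99 ± 0.21 log2, adjusted p = 0.0273, edgeR). Its input level was low, at 8.95 to 15.8 CPM in wild-type and 7.13 to 9.20 in MS1262. Sirt2 in both comparisons, Cd9 and Cd63 in vehicle against wild-type and Cd9 and C4b in MS1262 against wild-type kept their calls when any 1 animal was left out.

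The remaining list calls did not keep theirs. In input levels, Cryab was lost without wild-type animal 2, 3 or 4 or vehicle animal 1, 3 or 4, Sox6 without any wild-type animal or vehicle animal 1, 2 or 4, C4b in vehicle without wild-type animal 2, 3 or 4, and B2m in vehicle without wild-type animal 1, 3 or 4 or vehicle animal 1 or 2. In MS1262 against wild-type, B2m and Cd63 were lost without any wild-type animal or MS1262 animal 2, 3 or 4. In m6A enrichment of vehicle against wild-type, Gjb1 was lost without any wild-type animal or vehicle animal 1 or 2, and Plekhb1 and Qdpr without any wild-type animal or vehicle animal 1, 2 or 3. For MS1262 against wild-type, Gjb1 was lost without wild-type animal 1, Plekhb1 without wild-type animal 1 or 4 or MS1262 animal 3 or 4, Olig1 without wild-type animal 1 or 4 or any MS1262 animal, Pllp and Bcas1 without wild-type animal 1, 3 or 4 or any MS1262 animal, and Qdpr without any 1 animal. Of the IP level calls, each was lost without wild-type animal 2, 3 or 4 and without at least 1 5xFAD animal.

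Across the lists, IP over input in all animals was highest for the Nogo receptor pathway, through which myelin inhibits axon growth: 5 of 7 tested genes were higher in the IP, 1 was lower and the median was 1.11 log2. Lingo1, a co-receptor, was at 1.11 ± 0.08 and Tnfrsf19 at 0.82 ± 0.05 log2, while Rtn4, which encodes the ligand Nogo, was at −0.71 ± 0.06. Of the 12 precursor genes, 5 were higher in the IP and 2 lower, with a median of 0.17 log2. Among them Neu4 was at 1.21 ± 0.07 and Pdgfra, the growth factor receptor that marks these cells, at 0.85 ± 0.07 log2. The other genes of compact myelin and mature oligodendrocytes had 10 of 30 higher and 8 lower, with a median of 0.06 log2, compared with 0.88 for the 9 genes. Of all genes, 28.2% were called higher and 27.7% lower, so the counts of these 30 genes lay near the share over all genes.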

How the data were processed

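Poly(A) RNA of 12 hippocampi, 10% of 150 ng kept as input, gave 24 libraries. The submitters' processing notes list, in no order, Salmon 1.4.0, STAR 2.7.6a, MACS2 2.1.2, Trimmomatic 0.32, bcl2fastq 2.17.1.14 and SAMtools 1.10, and the builds mm10 and GRCm38. The deposited gene table holds estimated counts (14.9% of values above 0 are not whole; they were rounded here), and a second deposited table holds TPM. The libraries carry no molecular identifiers that the labels name. Peak calling, per the file headers, compared the IP of an animal with its own input at a q cutoff of 0.5 with tags extended to 200 bases and a genome size of 100000000. The deposited peak lists give pileup signal, −log10 p and q values, and fold enrichment. Redundant tag rates per the file headers were 35% to 66%.

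Here, edgeR 4.0.16 (R 4.3.3) quasi-likelihood fits with TMM scaling, a filter at a count of 10 and Benjamini-Hochberg adjustment at 0.05 were made over 12 inputs, over 12 IP libraries, and over 24 libraries with the animal as a block, each with all 3 groups. CPM use TMM scaling over the 24 libraries. Each IP library deviated most like its own animal's input (r of 0.19 to 0.43, best with its own in 12 of 12). limma 3.58.1 on log2(TPM + 1) and DESeq2 1.42.0 were alternatives, as were RLE scaling, no filter, blocks and leaving out animals; dropping vehicle animals 3 and 4 together and centring TPM were chosen after seeing the data. Fits were checked on simulated data. The labels do not say whether animals shared litters or preparation. List genes named were the 3 of smallest p in each list and comparison. The 9 genes, the lists and the tests were chosen with earlier results of these data known.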

Additional observations from a re-analysis of the deposited data

Results flagged for a closer look

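Within groups of 4, Dixon's test at 95% singled out 1 animal in 5 of 81 gene, readout and group combinations (6.17%), where chance gives about 1 in 20. Mog in the input of wild-type animal 3 was at 166 CPM, the other wild-type animals lying between 208 and 214. Mobp in the input of MS1262 animal 1 was at 389 CPM, against 260.0 to 274. Mal in the input of wild-type animal 4 was at 341 CPM, against 275 to 280.3. Myrf in the IP library of MS1262 animal 3 was at 16.1 CPM, against 19.2 to 19.8. The log2 IP over input of Myrf in MS1262 animal 2 was 1.26, against 0.72 to 0.77.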

How the results depend on the processing

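Leaving out 1 animal at a time, the number of the 9 genes called was 0 to 1 for input level of vehicle against wild-type, 5 to 7 for IP over input in vehicle, 5 to 6 in MS1262, 5 in wild-type and 8 over all animals, and 0 in every other comparison. Without the animal as a block (no replicate block), 5 of the 9 were called over all animals in place of 8, all higher. DESeq2 called 1 for m6A enrichment of MS1262 against wild-type (Mag). limma on log2(TPM + 1) called 9 in wild-type in place of 5 and turned Mog (0.48) and Opalin (0.47) in vehicle, Opalin (0.29) in MS1262, and Mog (0.44), Mal (0.45) and Opalin (0.37) over all animals to positive. Among list genes it turned St18 (0.33) and Rras2 (0.051) in wild-type, Aspa (0.13), St18 (0.26), Ptprz1 (0.082) and Rtn4 (0.046) in vehicle, St18 (0.12) in MS1262, and St18 (0.24), Tcf7l2 (0.14) and Rtn4 (0.057) over all animals. Centred on the library median it turned Matn4 (−0.17) and C4b (−0.23) in MS1262 and C4b (−0.046) over all animals. Without centring, all genes shift by a median of 0.33 to 0.41 log2.

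With the replicate number as a block across groups, 0 of the 9 were called in any comparison of input or IP level. Same-numbered animals of different groups correlated at −0.09 to 0.05 and differently numbered ones at −0.13 to 0.20. These correlations showed no pairing by number, and shared litters or preparation were not tested. That block left 134 genes called for input level in vehicle against wild-type in place of 278, and 50 and 66 for IP level in place of 91 and 114. DESeq2 called 611 and 633 genes for input level against wild-type (edgeR 278 and 230), 348 and 375 for IP level and 503 and 515 for m6A enrichment (edgeR 181 and 227). Without the animal block, enrichment calls were 0 and 1, without the filter 489 and 502 (42 for MS1262 against vehicle), and with limma on TPM 80 and 13. Leaving out 1 animal gave 108 to 297 and 105 to 174 for input level, 41 to 181 and 60 to 87 for IP level, and 33 to 408 and 58 to 180 for enrichment. Standard errors in m6A enrichment were 0.16 to 0.22 log2 for the low-count genes Sox10, Myrf and Mag, 0.16 for the abundant Mobp and 0.11 to 0.14 for the other 5; the part of depth was not tested.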
